A study of Mus musculus with 4 samples.

Results

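The miR-17/92a cluster is a group of miRNAs cut from 1 primary transcript of the host gene Mir17hg. It is described here by its 10 listed mature arms: mmu-miR-17-5p, mmu-miR-17-3p, mmu-miR-18a-5p, mmu-miR-18a-3p, mmu-miR-19a-3p, mmu-miR-19b-3p, mmu-miR-20a-5p, mmu-miR-20a-3p, mmu-miR-92a-3p and mmu-miR-92a-1-5p (the prefix for mouse is left out from here on). They were taken by name from the 1326 miRNAs in the deposited count table, and all 10 were among the 584 that entered the tests, which needed at least 10 counts in 2 or more libraries. Small RNA was sequenced from mouse retina at E18.5, shortly before birth, in 2 libraries from Ptf1a+/- embryos (1 functional copy of Ptf1a) and 2 from Ptf1a-/- embryos (none). Ptf1a is a transcription factor gene that retinal progenitors need to form amacrine and horizontal interneurons. The labels name no targeted allele, no wild-type group was analysed here, and nothing says whether libraries of 1 genotype stem from different animals. The p-values therefore measure only how far these libraries differ, and that spread may be technical.

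An miRNA precursor folds into a hairpin, and Dicer releases a 5p arm and a 3p arm from its sides. One arm is usually loaded into an Argonaute protein and kept, while the other is mostly degraded. The loaded arm recognises target mRNAs chiefly through its seed, bases 2 to 8 from the 5′ end. The miR-17/92a cluster is known for accompanying cell proliferation, is a target of Myc, and limits among others the cell cycle inhibitor p21 and the pro-apoptotic protein Bim; in the retina dividing progenitors are a known source.

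The 6 hairpins lie within exon 2 of Mir17hg on the plus strand (GRCm38, GENCODE M21; gene at chr14:115042879-115046727, exon 2 at chr14:115043271-115046727). Their order is miR-17, miR-18a, miR-19a, miR-20a, miR-19b-1 and miR-92a-1, and the listed arms begin 805 to 1597 bases after the start of the gene. All 10 arms were found by name in RefSeq (GRCm38.p6), from which the sequences are taken. The sequences follow by seed, since shared seeds tie members together and near-identical sequences can share reads; capitals mark the seed, and the first 6 are the more abundant arms of their hairpins.
miR-17-5p: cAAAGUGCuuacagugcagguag
miR-20a-5p: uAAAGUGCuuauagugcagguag
miR-18a-5p: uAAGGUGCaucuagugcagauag
miR-19a-3p: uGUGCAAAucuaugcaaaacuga
miR-19b-3p: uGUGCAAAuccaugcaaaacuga
miR-92a-3p: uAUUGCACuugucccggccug
miR-17-3p: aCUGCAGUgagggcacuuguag
miR-18a-3p: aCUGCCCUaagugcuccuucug
miR-20a-3p: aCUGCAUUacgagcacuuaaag
miR-92a-1-5p: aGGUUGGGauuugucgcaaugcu

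The 6 abundant arms carry 4 seeds. miR-17-5p and miR-20a-5p share a seed and differ only by C1T and C12T (positions from the 5′ end, the first-named miRNA's base first, in DNA letters). miR-19a-3p and miR-19b-3p differ by T11C alone. miR-19b-3p and miR-92a-3p are each encoded at 2 places, here and in the Mir106a cluster on chromosome X, so their counts cannot be assigned to Mir17hg alone, whereas miR-92a-1-5p is cut from Mir17hg only. 4 of the 10 arms, miR-17-5p, miR-19a-3p, miR-19b-3p and miR-20a-5p, had counts that were not whole, and the rule that divided reads between like miRNAs is not stated in the sources used here.

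The most frequent sequence of each arm was the same in all 4 libraries for all 10 arms, and equalled the RefSeq sequence for 4. miR-17-3p was 1 base shorter at its 3′ end. miR-18a-3p, miR-20a-3p and miR-92a-3p each ended in 1 further T. Both miR-19 arms ended in T in place of the reference A (A23T). The commonest forms of these arms, shown for their 3′ ends with the differing base in capitals, were the following.
miR-18a-3p: actgccctaagtgctccttctgT
miR-19a-3p: tgtgcaaatctatgcaaaactgT
miR-19b-3p: tgtgcaaatccatgcaaaactgT
miR-20a-3p: actgcattacgagcacttaaagT
miR-92a-3p: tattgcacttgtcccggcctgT
In the RefSeq hairpins the base after the mature arm is U for miR-20a-3p and for the Mir17hg copy of miR-92a-3p, and G for miR-18a-3p. The further T of miR-18a-3p therefore does not match its hairpin. At this level of detail the commonest forms did not differ between Ptf1a+/- and Ptf1a-/-.

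Listed counts summed to 3647145 to 4385834 per library, so a count of 0 would allow up to 0.684 to 0.823 CPM (counts scaled to a common library total; 3 counts, counting error only). Levels below are CPM scaled by edgeR's TMM factors, which were 1.06 to 1.07 in 3 libraries and 0.829 in Ptf1a-/- replicate 2. That library stood apart, and of the total the authors divided by for their CPM, 27.9% was not among the listed counts there, against 22.7% in Ptf1a-/- replicate 1 and 16.3 and 17.0% in Ptf1a+/-. The SD over miRNAs of the log2 ratio of replicate 2 to replicate 1 was 0.57 in Ptf1a-/- and 0.28 in Ptf1a+/-. All 5 retina markers (miR-183-5p, miR-182-5p, miR-96-5p, miR-124-3p and miR-9-5p) were measured in each library, together 36.1% of the counts in Ptf1a+/-. Their sum stood at 340223 and 336990 CPM in Ptf1a+/- and, for replicates 1 and 2 of Ptf1a-/-, at 363414 and 517788 CPM. Of the 5, 3 had fitted log2 fold changes above 0 and 2 below, and none passed the test. Among markers of other tissue, 2 of 4 blood miRNAs could be tested, and the defining miR-451a and miR-144-3p had 0 to 2 counts in each library. The summed blood markers stood at 94.2 to 95.5 CPM in Ptf1a+/- and 83.1 and 123 in Ptf1a-/-, those of vessels (3 of 4 tested) at 593 to 613 and at 352 and 587, those of muscle (3 of 3) at 48.5 to 51.3 and at 65.0 and 70.2, those of lens and surface epithelium (3 of 4) at 292 to 305 and at 227 and 300, and those of pigment epithelium (3 of 3) at 3689 to 3728 and at 3203 and 3565. Of the single markers of other tissue, miR-200b-3p of surface epithelium fell (25 and 31 counts against 1 and 3, edgeR adjusted p = 0.0124), as did miR-204-3p of pigment epithelium (log2 fold change -0.54 ± 0.12, edgeR adjusted p = 0.0436), and no other marker of other tissue passed. The lens and surface epithelium markers did not move together: 2 of the 3 tested had log2 fold changes below 0, and miR-203-3p went the other way, at 0.30. All 3 pigment epithelium markers were below 0. The part of other tissue in the results was not tested. In whole retina fewer cells of a type and less RNA per cell cannot be told apart.

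The arms of the cluster differed widely in level. miR-92a-3p was the most abundant, 12th of the 584 tested miRNAs by mean level, at 12610 and 12491 CPM in Ptf1a+/- and, for replicates 1 and 2 of Ptf1a-/-, at 10713 and 12661 CPM. miR-20a-5p and miR-17-5p followed at a far lower level, then miR-19a-3p, miR-19b-3p, miR-18a-5p, miR-17-3p, miR-18a-3p, miR-92a-1-5p and miR-20a-3p. In Ptf1a+/- the libraries of neighbours in this order did not overlap, though miR-17-5p (1935 ± 39.4 CPM, SD, n = 2) and miR-20a-5p (2028 ± 21.5) lay close. In Ptf1a-/- those 2 arms overlapped between libraries, while miR-20a-5p was above miR-17-5p within each. Gel cuts, ligation and PCR favour some sequences, so levels of different arms compare less well than levels of 1 arm between libraries.

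**Figure D1:**
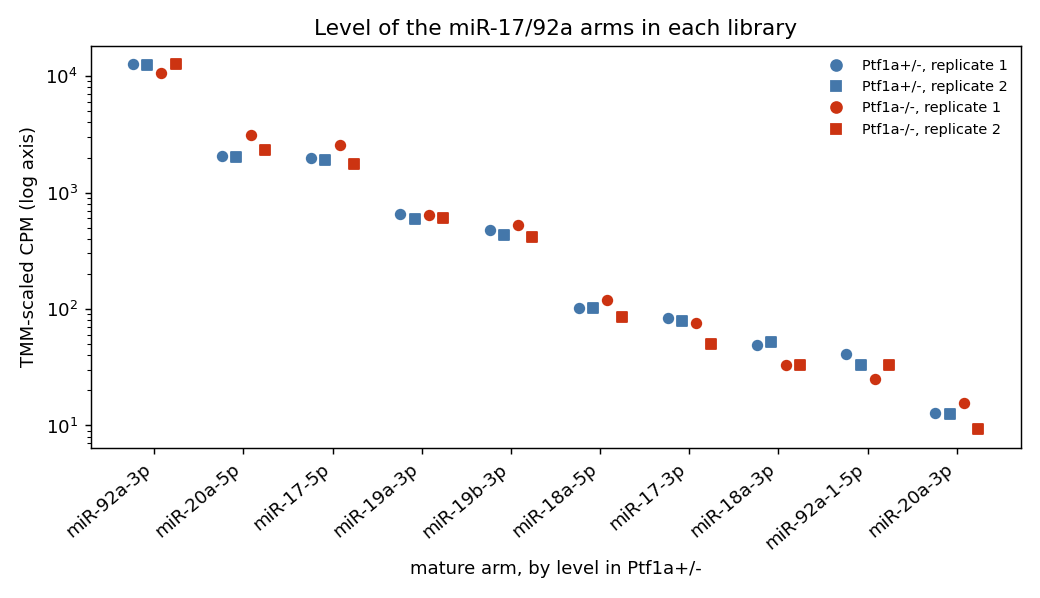
TMM-scaled CPM on a log axis of the 10 arms (x axis, by level in Ptf1a+/-) in each of the 4 libraries, blue for Ptf1a+/- and red for Ptf1a-/-, circles for replicate 1 and squares for replicate 2. miR-92a-3p lies highest at 10713 to 12661 CPM and miR-20a-3p lowest at 9.23 to 15.7 CPM, and the blue points of each arm lie close together.

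The comparison asked which arms differ in retina without functional Ptf1a. The 10 arms together gave a similar TMM-scaled level in each library, 18036 and 17712 CPM in Ptf1a+/- and 17851 and 17944 CPM in Ptf1a-/-. Most of this sum is miR-92a-3p; the other 9 arms gave 5426 and 5220 CPM in Ptf1a+/- and 7138 and 5283 CPM in Ptf1a-/-, so that among them Ptf1a-/- replicate 1 stood apart and was offset in the sum by its lower miR-92a-3p. Without TMM scaling they took 1.92 and 1.90% of the listed counts in Ptf1a+/- and 1.89 and 1.49% in Ptf1a-/-, so the sum in Ptf1a-/- replicate 2 depends on the scaling. None of the 10 arms passed the test (edgeR's quasi-likelihood test, Benjamini-Hochberg adjusted p under 0.05 over all 584 miRNAs), against 9.76% of all miRNAs. At an unadjusted edgeR p under 0.05 there were 2, miR-18a-3p and miR-20a-5p, in opposite directions, against 25.3% of all miRNAs. DESeq2 also called none of the 10 and had 2 at an unadjusted p under 0.05, against 107 of all miRNAs. The median log2 fold change of the 10 was -0.01, and that of all miRNAs was -0.00. Both Ptf1a-/- libraries lay below both Ptf1a+/- libraries for 3 arms (31.5% of all miRNAs) and above both for 1 (26.7% of all miRNAs), so these counts are near or under the background.

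The AAAGUGC arms, miR-17-5p and miR-20a-5p, are those best known for limiting cell cycle inhibitors. miR-20a-5p stood at 2044 and 2013 CPM in Ptf1a+/- and at 3130 and 2300 CPM in Ptf1a-/- replicates 1 and 2. Both Ptf1a-/- libraries were thus above both Ptf1a+/- libraries, replicate 1 by far the more. The log2 fold change was 0.42 ± 0.16 (SE, edgeR adjusted p = 0.183). It was 0.65 with Ptf1a-/- replicate 2 left out and 0.18 with replicate 1 left out.

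miR-17-5p stood at 1963 and 1907 CPM in Ptf1a+/- and at 2574 and 1759 CPM in Ptf1a-/- replicates 1 and 2. Here the Ptf1a-/- libraries lay on either side of the Ptf1a+/- pair. The log2 fold change was 0.16 ± 0.19 (edgeR adjusted p = 0.652). Left out in turn, Ptf1a-/- replicate 2 and replicate 1 gave 0.43 and -0.14, so that 1 library decided the sign.

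miR-18a-5p, whose seed differs from that of miR-17-5p by A4G alone, stood at 102 CPM in each Ptf1a+/- library and at 121 and 85.9 CPM in Ptf1a-/- replicates 1 and 2. It too lay on either side of the Ptf1a+/- pair (log2 fold change 0.02 ± 0.19, edgeR adjusted p = 0.964).

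The GUGCAAA arms, miR-19a-3p and miR-19b-3p, are known as the main oncogenic members of the cluster in lymphoma models. miR-19a-3p stood at 653 and 592 CPM in Ptf1a+/- and at 638 and 599 CPM in Ptf1a-/-, all within the range of the Ptf1a+/- pair. It was the steadiest arm of the cluster, with a log2 fold change of -0.01 ± 0.11 (edgeR adjusted p = 0.975). miR-19b-3p stood at 478 and 428 CPM against 524 and 414 CPM (0.05 ± 0.15, edgeR adjusted p = 0.869), its Ptf1a-/- libraries just outside the pair on either side. miR-92a-3p, the AUUGCAC arm, known for a role in vessel growth, had a log2 fold change of -0.10 ± 0.13 (edgeR adjusted p = 0.707) with overlapping genotypes.

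The 4 rarer arms all had fitted values below 0, as had 296 of all 584 tested miRNAs. That of miR-20a-3p was only -0.0025, and stood at 0.33 without Ptf1a-/- replicate 2 and at -0.46 without replicate 1. miR-18a-3p stood at 49.1 and 52.5 CPM in Ptf1a+/- and at 33.3 and 33.2 CPM in Ptf1a-/-. After TMM scaling both Ptf1a-/- libraries were lower by nearly the same amount, which no other arm of the cluster showed. That closeness depends on the TMM factors, 1.06 and 0.829 in Ptf1a-/- replicates 1 and 2. It also rests on few counts, so it is no trait of this arm. With 190 and 247 counts against 129 and 108, the log2 fold change was -0.61 ± 0.16 (edgeR adjusted p = 0.0779), the lowest p of the 10. Leaving out each library in turn gave -0.65 to -0.56.

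miR-17-3p stood at 83.4 and 79.1 CPM in Ptf1a+/- and at 76.4 and 50.2 CPM in Ptf1a-/- replicates 1 and 2. Replicate 1 lay just under the Ptf1a+/- pair and replicate 2 well under it (log2 fold change -0.35 ± 0.22, edgeR adjusted p = 0.387; -0.07 with Ptf1a-/- replicate 2 left out and -0.69 with replicate 1 left out). miR-92a-1-5p stood at 41.1 and 33.0 CPM against 25.3 and 32.9 CPM. Its Ptf1a-/- replicate 2 was level with Ptf1a+/- replicate 2, and replicate 1 was lower (-0.35 ± 0.22, edgeR adjusted p = 0.390). The value was -0.18 without Ptf1a+/- replicate 1, -0.15 without Ptf1a-/- replicate 1 and -0.51 without Ptf1a-/- replicate 2. miR-20a-3p, with 30 to 61 counts per library, stood at 12.9 and 12.5 CPM against 15.7 and 9.23 CPM, on either side of the Ptf1a+/- pair (-0.00 ± 0.31, edgeR adjusted p = 0.997).

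**Figure D2:**
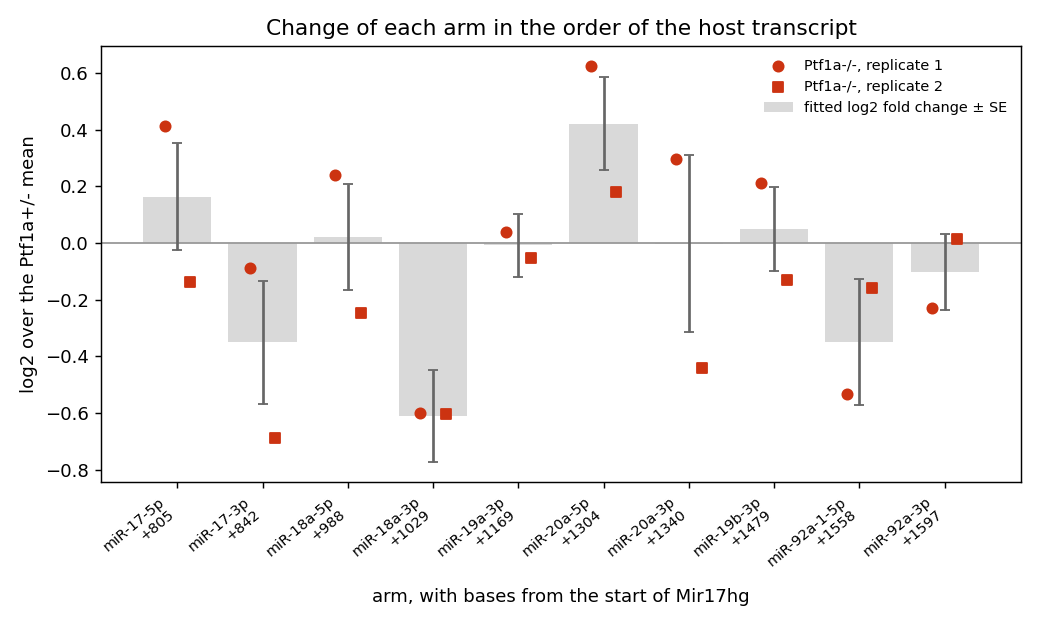
Log2 level over the Ptf1a+/- mean (y axis) for each arm in the order of the host transcript, with its distance in bases from the start of Mir17hg; red circles and squares are Ptf1a-/- replicates 1 and 2, grey bars the fitted log2 fold change with its SE. For miR-18a-3p both points lie at -0.60, for miR-20a-5p at 0.63 and 0.18, and for miR-17-5p on either side of 0 at 0.41 and -0.14.

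The Ptf1a-/- libraries differed more from each other than the genotypes did for most arms. Ptf1a-/- replicate 2 was below replicate 1 for 8 of the 10 arms, against 49.3% of all miRNAs. The log2 ratio of replicate 2 to replicate 1 was -0.74 for miR-20a-3p, -0.60 for miR-17-3p, -0.55 for miR-17-5p, -0.49 for miR-18a-5p, -0.44 for miR-20a-5p and -0.34 for miR-19b-3p. For miR-19a-3p and miR-18a-3p it was -0.09 and -0.00, and for the arms of the last hairpin it was above 0, at 0.24 for miR-92a-3p and 0.37 for miR-92a-1-5p. Between the Ptf1a+/- libraries the same ratio ran from -0.31 (miR-92a-1-5p) to 0.10 (miR-18a-3p).

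Ratios of 2 arms within a library need no scaling between libraries, so they were compared next. For hairpins with both arms listed, the log2 ratio of 3p to 5p counts (0.5 added to each) was tested with limma over 153 hairpins. In miR-17, the 3p arm was the rarer, with log2 ratios of -4.55 and -4.59 in Ptf1a+/- and -5.07 and -5.13 in Ptf1a-/-. Each pair lay close together and the pairs lay apart, although the levels of both arms differed widely between the Ptf1a-/- libraries. The closeness within each pair rests on 163 to 372 counts of miR-17-3p, so it is no trait of this hairpin. The counts of miR-17-5p also hold reads divided between like miRNAs. The difference between the genotypes was -0.53 ± 0.22 (SE, limma adjusted p = 0.225), and -0.56 to -0.50 over the fits that left out 1 library.

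In miR-18a the log2 ratios were -1.05 and -0.96 in Ptf1a+/- and -1.85 and -1.37 in Ptf1a-/- (difference -0.60 ± 0.25, limma adjusted p = 0.225; -0.36 without Ptf1a-/- replicate 1 and -0.85 without replicate 2). In miR-20a they were -7.29 and -7.31 against -7.62 and -7.94 (-0.48 ± 0.32, limma adjusted p = 0.50; -0.63 and -0.32 without the same libraries). In miR-92a-1 the 5p arm is the rarer and the log2 ratios of 3p to 5p were 8.26 and 8.56 against 8.72 and 8.58 (0.24 ± 0.26, limma adjusted p = 0.666). Without Ptf1a+/- replicate 1 this value was 0.088 and without replicate 2 it was 0.39; its 3p reads come from 2 loci.

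The rarer arm was thus lower relative to its partner in both Ptf1a-/- libraries than in both Ptf1a+/- libraries in all 4 hairpins, as it was in 28.1% of all 153 hairpins. In miR-92a-1 this rests on 8.56 in Ptf1a+/- replicate 2 against 8.58 in Ptf1a-/- replicate 2, with 98 to 159 counts of the 5p arm. None of the 4 passed after adjustment, against 1.31% of all hairpins (2, miR-673 and miR-342, with log2 changes of 2.17 and 0.95). At an unadjusted p under 0.05 there were 2 of the 4, miR-17 and miR-18a, against 16.3% of all. The median change of the rarer arm relative to its partner was -0.05 over all hairpins. The pattern was not particular to Mir17hg: in the Mir106b/25 cluster, described below, miR-93 and miR-25 showed it and miR-106b did not.

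**Figure D3:**
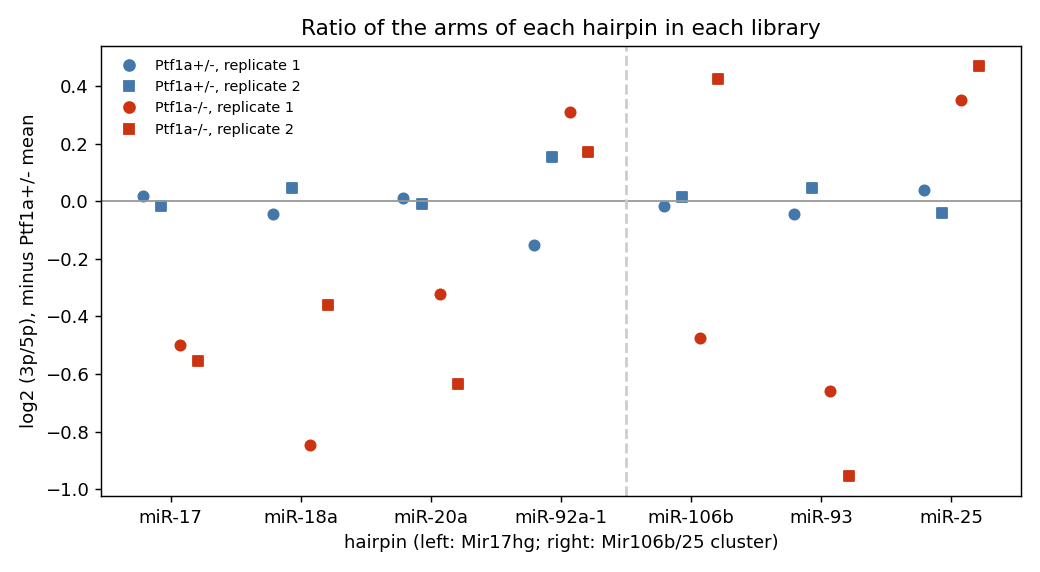
Log2 ratio of 3p to 5p counts per library, minus the Ptf1a+/- mean of each hairpin (y axis), for 4 hairpins of Mir17hg and the 3 of the Mir106b/25 cluster; blue is Ptf1a+/-, red Ptf1a-/-, circles replicate 1 and squares replicate 2. The red points of miR-17, miR-18a, miR-20a and miR-93 all lie below the blue ones, and those of miR-106b lie on either side of them.

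The ratio of miR-20a-5p to miR-17-5p, chosen after its values were seen, was 1.04 and 1.06 in Ptf1a+/- and 1.22 and 1.31 in Ptf1a-/-. Both Ptf1a-/- libraries lay above the pair, by a mean log2 difference of 0.27. The ratio of miR-18a-5p to miR-17-5p was 0.0518 and 0.0536 against 0.0468 and 0.0488, a mean log2 difference of -0.14. The ratio of miR-19b-3p to miR-19a-3p was 0.732 and 0.723 against 0.820 and 0.691, with no separation of the genotypes. An exact two-sided permutation test of 2 libraries against 2 gave p = 0.33 for the first 2 ratios, which is the smallest it can give, and p = 1 for the third. Of 8 such ratios, all chosen with values in view, 5 separated the genotypes, and none can pass with 2 libraries a genotype. Several of the 8 reuse the same arms, and the share that separates among all pairs of miRNAs was not computed. The 5 are therefore no result about the cluster.

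Of the summed counts of the 10 arms, miR-20a-5p took 11.3 and 11.4% in Ptf1a+/- and 17.5 and 12.8% in Ptf1a-/-. miR-18a-3p took 0.272 and 0.297% against 0.186 and 0.185%. miR-92a-3p took 69.9 and 70.5% against 60.0 and 70.6%, so that its lower share was that of Ptf1a-/- replicate 1 alone. Exact permutation p-values over the libraries were 0.33, the smallest possible, for 4 arms (miR-17-3p, miR-18a-3p, miR-20a-5p and miR-92a-1-5p) and 0.667 or 1 for the other 6. For comparison, the TMM-scaled levels of 31.5% of all miRNAs lay lower in both Ptf1a-/- libraries than in both Ptf1a+/- libraries, and those of 26.7% higher.

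**Figure D4:**
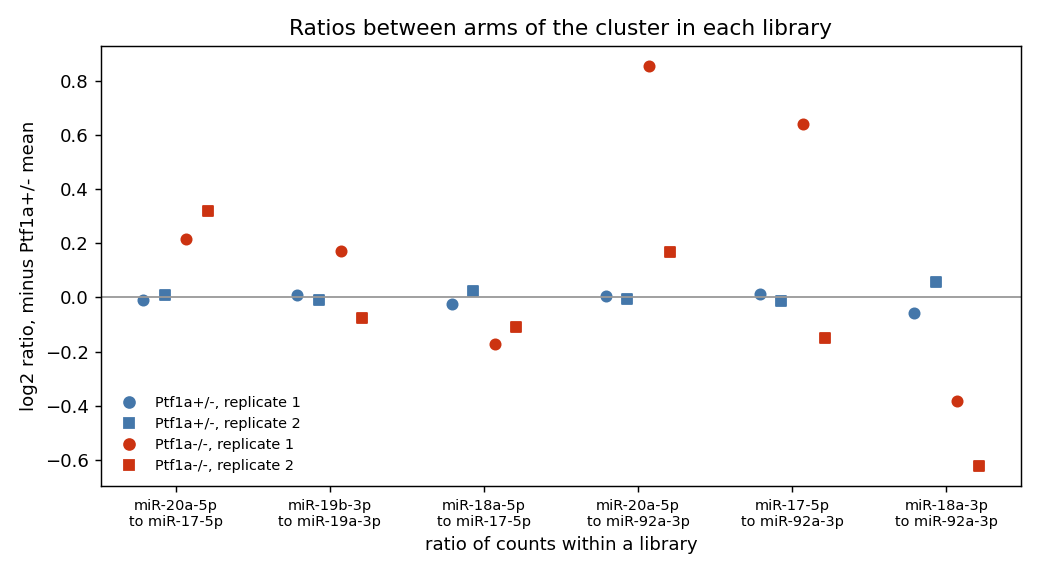
Log2 ratio of the counts of 2 arms within a library, minus the Ptf1a+/- mean (y axis), for 6 pairs of arms of the cluster; blue is Ptf1a+/-, red Ptf1a-/-, circles replicate 1 and squares replicate 2. The red points lie above the blue ones for miR-20a-5p to miR-17-5p and below them for miR-18a-3p to miR-92a-3p, and on either side of them for miR-17-5p to miR-92a-3p.

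Relatives of the cluster at other loci share seeds with it in some of their arms (miR-106a-5p, miR-20b-5p, miR-106b-5p, miR-93-5p, miR-18b-5p, miR-25-3p and miR-363-3p), while miR-106b-3p, miR-93-3p and miR-25-5p do not. In the Mir106b/25 cluster, which lies in the replication gene Mcm7, none of 6 tested arms passed (log2 fold changes -0.63 to 0.16). miR-93-3p, the rarer arm of its hairpin, stood at 65.3 and 68.5 CPM in Ptf1a+/- and at 47.5 and 38.5 CPM in Ptf1a-/- (-0.63 ± 0.17, edgeR adjusted p = 0.0811), a value like that of miR-18a-3p. miR-93-5p stood at 5207 and 5119 CPM against 5794 and 5761 CPM (0.16 ± 0.11, edgeR adjusted p = 0.407). The log2 change of 3p to 5p was -0.81 ± 0.23 in miR-93 (limma adjusted p = 0.0561), 0.41 ± 0.21 in miR-25 (0.322), where 5p is the rarer arm, and -0.02 ± 0.24 in miR-106b (0.946). The Ptf1a-/- libraries differed here as well: the log2 ratio of replicate 2 to replicate 1 was -0.45 for miR-106b-5p and 0.45 for miR-106b-3p.

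The arms listed only for the Mir106a cluster on chromosome X were far lower, with 3 of 6 tested (miR-106a-5p, miR-20b-5p and miR-363-3p) and a summed 72.0 to 80.5 CPM per library. miR-19b-3p and miR-92a-3p, which that locus also encodes, are not in this sum but among the 10 arms, so the level of the whole locus is not known. miR-363-3p, the most abundant of the 3, stood at 48.8 and 52.3 CPM in Ptf1a+/- and 51.6 and 50.5 CPM in Ptf1a-/- (0.01 ± 0.15, edgeR adjusted p = 0.975). miR-92a-2-5p, the partner of miR-92a-3p at the X locus, had 1, 1, 0 and 0 counts, against 98 to 159 for miR-92a-1-5p. The other arms of Mir17hg were low: miR-19b-1-5p had 7 to 19 counts (log2 fold change -0.69 ± 0.41, edgeR adjusted p = 0.372) and miR-19a-5p 0 or 1.

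miR-20b-5p of the X cluster had 52.2 to 78.5 counts and a log2 fold change of 0.42 ± 0.22 (edgeR adjusted p = 0.309), a value like that of miR-20a-5p. Its most frequent sequence was the reference one in Ptf1a+/- replicate 1 and carried C10T in the other 3 libraries. That form differs by a single base from miR-17-5p (C12T, the base of miR-17-5p first) and from miR-20a-5p (T1C, the base of miR-20a-5p first). It is shown because counts listed for miR-20b-5p may not be separable from those of the 2 abundant members; capitals mark the position.
miR-20b-5p, commonest form in 3 libraries: caaagtgctTatagtgcaggtag

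By seed, all 6 tested AAAGUGC arms of the 3 clusters (miR-17-5p, miR-20a-5p, miR-106a-5p, miR-20b-5p, miR-106b-5p and miR-93-5p) had log2 fold changes above 0, from 0.02 to 0.42, as had 49.3% of all miRNAs, and none passed. The 6 may not be separate measurements. miR-106a-5p, with 29.3 to 38.2 counts, differs from miR-17-5p by T10A alone (the base of miR-17-5p first). Counts of miR-20b-5p may not be separable from those of miR-17-5p and miR-20a-5p. miR-17-5p turned to -0.14 without Ptf1a-/- replicate 1, and miR-106b-5p, at 694 CPM in each Ptf1a+/- library, lay on either side of the pair at 809 and 594 CPM. With library size as the only scaling 3 of the 6 were above 0, and on the deposited CPM 2 were; these scalings moved the median of all miRNAs to -0.18 and -0.33. Relative to that median 6 and 5 of the 6 were above. The 3 tested AUUGCAC arms of the same clusters (miR-92a-3p, miR-25-3p and miR-363-3p) ran from -0.10 to 0.04 with TMM scaling, 2 of them above 0. None of them was above 0 with the other 2 scalings. Arms with these seeds outside the 3 clusters are not included.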

How the data were processed

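Per the labels' protocols, small RNA (18 to 30 nt) was gel-purified from 1 µg of total RNA and made into libraries. The submitters' processing notes name bcl2fastq 2.20.0.422. Aligner, counter and build are not stated in the sources used here, and no molecular identifiers are described. The authors' deposited table of raw values holds estimated counts per mature miRNA (5.73 to 7.84% of values not whole). These were rounded for count tests, as the design had set. The deposited CPM table divides the same counts by a larger total. The third deposited table is text, written against miRBase 22 per the file headers.

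edgeR 4.0.16 (R 4.3.3) was run on 584 of 1326 miRNAs with TMM scaling and a genotype term alone, on 3647145 to 4385834 counts per library. SE of log2 fold changes were derived from the fit. Arm ratios were tested with limma 3.58.1 (trend on the rarer arm's level), pairing arms by name. DESeq2 1.42.0 was an alternative. Both tests were tried on simulated data. Named miRNAs are the 10 arms, all arms of the paralog clusters, 3 neighbours in pattern for each of 2 arms, and the called hairpins. The members and lists were chosen with earlier results of these data known. Replicate numbers do not pair the libraries by any label.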

Additional observations from a re-analysis of the deposited data

How the results depend on the processing

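No arm of the cluster passed under any alternative that kept both Ptf1a-/- libraries. Leaving out each library in turn gave 0 to 7 arms called, 1 to 274 miRNAs called and 0 to 44 arm ratios called. The high counts are those without a Ptf1a-/- library, where the remaining one is assumed to vary like the Ptf1a+/- pair: 6 arms and 263 miRNAs without replicate 1, and 7 and 274 without replicate 2. Of all miRNAs 57 were called (36 higher), against 16 with library size only (4 higher), 21 with no filter, 28 and 27 on the deposited CPM at pseudocounts of 1 and 0.25 (1 higher in each), and 1 with the Ptf1a+/- libraries summed. Arm ratio calls were 2, against 9 at a pseudocount of 2, 8 with 5 or more counts of both arms in every library, and 0 with the pair summed. With the replicate block 12 miRNAs and 2 arm ratios were called and no member. Deviations of same-numbered libraries from their genotype mean correlated at 0.0503 over miRNAs. With 2 libraries a genotype this value is the same for both numbers by construction. It cannot show whether same-numbered libraries belong together, which the labels do not state.

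Of the arms' log2 fold changes, 21 of 120 alternative values had the opposite sign, and the cause was not tested. miR-19a-3p stood at 0.0048 with RLE factors, 0.0046 with DESeq2 and 0.0017 with the pair summed, and miR-20a-3p at 0.0096 with RLE factors. With library size only, miR-18a-5p stood at -0.14 and miR-19b-3p at -0.11. On the deposited CPM, miR-17-5p stood at -0.21 at both pseudocounts, miR-18a-5p at -0.34 and -0.35, and miR-19b-3p at -0.30 at both. The median of all tested miRNAs moved as well, to -0.18 with library size only and to -0.33 and -0.36 on the deposited CPM at pseudocounts of 1 and 0.25. Leaving out 1 library gave -0.14 to 0.43 for miR-17-5p, -0.25 to 0.26 for miR-18a-5p, -0.078 to 0.067 for miR-19a-3p, -0.13 to 0.23 for miR-19b-3p, -0.46 to 0.33 for miR-20a-3p and -0.21 to 0.013 for miR-92a-3p. miR-17-3p, miR-18a-3p and miR-92a-1-5p stayed below 0 and miR-20a-5p above 0 in each alternative run. miR-20a-5p stood at 0.27 with library size only and at 0.059 on the deposited CPM at both pseudocounts, against 0.42, beside the same lower medians of all miRNAs. Leaving out 1 library gave -0.69 to -0.07 for miR-17-3p and -0.51 to -0.15 for miR-92a-1-5p, and for the 3p to 5p ratio -0.85 to -0.36 in miR-18a, -0.63 to -0.32 in miR-20a and 0.088 to 0.39 in miR-92a-1. miR-20a-3p had the fewest counts of the 10 arms, 30 to 61 per library.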

Other observations

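The tested miRNAs outside the cluster and its paralogs whose levels lay closest to those of miR-20a-5p over the 4 libraries (Euclidean distance of log2 TMM-scaled CPM, centred on the Ptf1a+/- mean) were miR-758-3p at a distance of 0.106, miR-324-3p at 0.148 and miR-154-5p at 0.165, with log2 fold changes of 0.36, 0.42 and 0.38 and edgeR adjusted p of 0.306, 0.316 and 0.441. Those closest to miR-18a-3p were miR-222-3p at 0.115, miR-125a-5p at 0.140 and miR-296-3p at 0.159, with log2 fold changes of -0.59, -0.52 and -0.55. These 3 passed the test (edgeR adjusted p = 0.0436, 0.0430 and 0.0387), as did 9.76% of all miRNAs, while miR-18a-3p, with the largest fitted decrease of the 4, did not. The 3 were picked for their likeness to miR-18a-3p in these same 4 libraries. Their passing therefore adds nothing about miR-18a-3p.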
